A study of Mus musculus with 11 samples.

Results

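J-domain chaperone genes were taken as all protein-coding genes whose symbol is Dnaja, Dnajb or Dnajc followed by a number, with Dnajb13 left out. The RefSeq gene table of GRCm38.p6 held 44 such genes among 21887 protein-coding genes: 4 Dnaja, 12 Dnajb and 28 Dnajc genes. Of these, 2 carry a letter after the number (Dnajc5b and Dnajc5g), and neither was bound. The genes were set against binding sites of RFX1, RFX2 and RFX3, mapped by chromatin immunoprecipitation and sequencing (ChIP-seq) in ependymal cells, the ciliated cells lining the brain ventricles. All cells came from lateral brain walls of wild-type OF1 mice and were differentiated ex vivo; the labels call the tissue embryonic and give the age as P0. There were 2 ChIP samples per factor, with an antibody of their own for RFX1, RFX2 and RFX3, and 5 input samples without antibody. The RFX2 antibody was of a different lot in each replicate. The number of animals behind a sample was not given in the labels used here.

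The deposited values were 1 list of reproducible peaks per factor, with 7440 peaks for RFX1, 1250 for RFX2 and 9318 for RFX3. The replicates of a factor were already merged, so the values below have no replicate error, and no test over samples could be run. Sequencing depth is unknown. Peak lists hold no expression values, so the labelled cell type was not checked against markers. A gene was called bound when the summit of a peak, its point of strongest signal, lay within 1 kb of either annotated end of the gene. Fold enrichment and −log10 q of a peak are the authors' own values; a higher −log10 q means a more confident peak.

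J-domain proteins, also called Hsp40 proteins, are partners of the Hsp70 chaperones. Their J domain stimulates the ATPase of Hsp70, and the rest of each protein brings Hsp70 to a client or a place, such as the cytosol, the endoplasmic reticulum, mitochondria or clathrin-coated vesicles. The RFX family are transcription factors with a winged-helix domain that recognise the X-box, an inverted repeat best known from the promoters of ciliary genes.

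RFX1 was bound at 12 of the 44 J-domain genes (27.3%, exact Clopper-Pearson 95% interval 15.0 to 42.8), against 9.05% of all protein-coding genes. RFX3 was bound at 9 (20.5%, 9.80 to 35.3), against 7.94%, and RFX2 at 3 (6.82%, 1.43 to 18.7), against 2.08%. The intervals cover the counting of genes only. All 3 factors were bound at Dnajc10, Dnajc16 and Dnajc7, again 3 of 44 where all protein-coding genes gave 2.06%. RFX1 and RFX3 without RFX2 were bound at 6 genes (13.6%, against 4.82%): Dnaja1, Dnajb2, Dnajc3, Dnajc15, Dnajc24 and Dnajc27. RFX1 alone was bound at Dnajb12, Dnajc13 and Dnajc30, which is 3 of 44 against 2.14%. RFX3 without RFX1 was bound at 0 of 44, where the exact interval reaches 8.04% and a limit of 3 counts gives 6.82%; the background for RFX3 alone was 1.06%. At least 1 factor was thus bound at the same 12 genes as RFX1, against 10.1% of all genes.

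**Figure D1:**
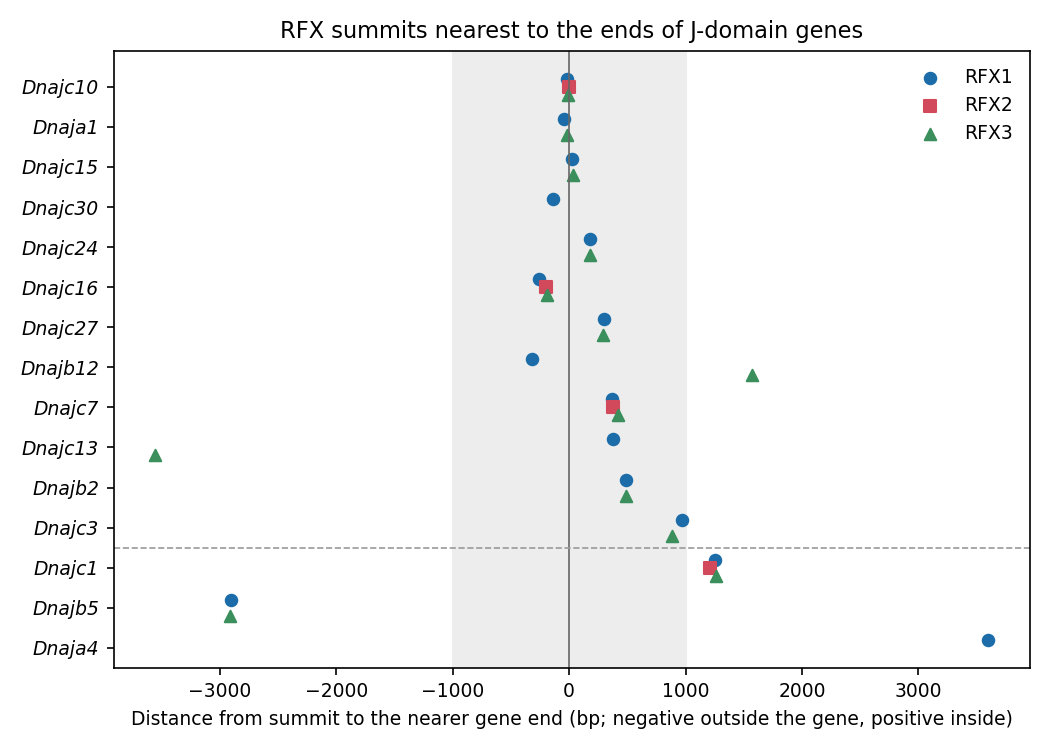
Distance in bp from the nearest summit of each factor to the nearer annotated end of a J-domain gene, negative outside the gene and positive inside it; grey marks the 1 kb window, and genes under the dashed line were not bound. Summits over 5 kb away are not drawn. The 12 bound genes have RFX1 summits between 14 and 971 bp from an end, and the 3 summits of Dnajc1 lie just outside the window.

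Members of the endoplasmic reticulum, 12 of the 44, held 2 of the 3 genes with every factor. That list had 4 with RFX1 (33.3%, against 9.05% of all genes), 3 with RFX3 (25.0%, against 7.94%) and 2 with RFX2 (16.7%, against 2.08%). Dnajc10, on chromosome 2 at 80315446–80354055, encodes a disulfide reductase of the endoplasmic reticulum that takes part in the degradation of misfolded proteins. Its RFX1 peak had a fold enrichment of 19.7 and a −log10 q of 161, rank 103 of its list. Its RFX2 peak had a fold of 12.3 and a −log10 q of 40.2, and its RFX3 peak a fold of 8.18 and a −log10 q of 78.6. The 3 summits lay 14, 5 and 9 bp before the annotated start, within 9 bp of each other. No other J-domain gene had an RFX1 peak of higher −log10 q.

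Dnajc16, which encodes a membrane protein of the endoplasmic reticulum with a thioredoxin-like region, lay on chromosome 4 at 141761998–141790644 on the minus strand. Its RFX1 peak had a −log10 q of 147 and a fold of 10.9. The RFX2 peak had 58.8 and 7.78. The RFX3 peak had 108 and 6.99, the highest −log10 q of RFX3 at any bound member. The RFX2 and RFX3 summits lay 197 and 188 bp upstream of the start, and the RFX1 summit 262 bp upstream, 65 bp from that of RFX2. The RFX1 peak was 1 of the strongest 2.26% of its list, and the RFX3 peak 1 of the strongest 2.22%.

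The other members of the endoplasmic reticulum had weaker peaks at their ends. Dnajc3 encodes p58IPK, an inhibitor of stress kinases. Its RFX1 and RFX3 summits lay 971 and 886 bp inside the gene, the nearest of all bound members to the 1 kb limit. Their −log10 q values were 20.8 and 9.70, the latter at rank 8655 of 9318. Dnajb12, which encodes a membrane-bound member, was bound by RFX1 at its 3′ end. That summit lay 317 bp past the end, with a fold of 6.53 and a −log10 q of 34.4. A stronger pair of sites lay inside the gene, 1553 bp from the end for RFX1 (−log10 q of 66.6) and 1568 bp for RFX3 (65.6). Dnajb12 was the only bound member with a strand in the table whose site lay at the 3′ end.

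Dnajc1 had peaks of all 3 factors just beyond the 1 kb window. It encodes a ribosome-binding membrane protein of the endoplasmic reticulum. The gene spans 18205634–18394099 on chromosome 2, and the RFX1, RFX2 and RFX3 summits lay 1254, 1206 and 1262 bp inside that end. Their −log10 q values were 118, 39.1 and 63.6, and the folds were 14.4, 9.97 and 5.83. The RefSeq promoter table gives another start of Dnajc1 at 18392830, and the same summits lay 15, 63 and 7 bp from it. Dnajc25 was alike: its RFX1 and RFX3 summits lay 8204 and 8273 bp from the nearer gene end, but 190 and 121 bp upstream of a RefSeq start at 59003193. These had −log10 q of 54.2 and 36.6. Counting a RefSeq start as well as a gene end gave RFX1 at 14 members (10.1% of all genes), RFX2 at 4 (2.35%) and RFX3 at 11 (8.96%). Dnajc1 and Dnajc25 were the genes gained. This count was added after the distances were seen.

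To show the bases at or near these summits, 6 stretches upstream of a RefSeq start are printed here, 5′ to 3′ on the gene's strand, from RefSeq (GRCm38.p6). Each was chosen for the letters marked in it. The RFX1 summit of Dnajc16 and the RFX1 and RFX2 summits of Dnajc7 lie beyond the printed bases. The X-box was searched as the arm GTTNC, any 4 bases and the opposite arm GNAAC. A looser form had the arms GTNNC and GNNAC with the same spacing. The strict form is contained in the loose one, and both read the same on either strand. The short core GTTGCC was searched on both strands as well, and overlaps either form where they coincide. These letters were chosen after the promoters had been seen. Capitals mark the strict form in Dnajc16 and Dnaja1, the loose form in Dnajc10, the core (as GGCAAC) in Dnajc7, and in Dnajc1 and Dnajc25 the longest run of bases common to their stretches of 250 bases before the start, on either strand.
Dnajc10, chr2:80315327-80315446, plus strand: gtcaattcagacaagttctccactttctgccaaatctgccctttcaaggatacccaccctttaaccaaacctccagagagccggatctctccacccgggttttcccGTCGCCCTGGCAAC
Dnajc16, chr4:141790645-141790894, minus strand: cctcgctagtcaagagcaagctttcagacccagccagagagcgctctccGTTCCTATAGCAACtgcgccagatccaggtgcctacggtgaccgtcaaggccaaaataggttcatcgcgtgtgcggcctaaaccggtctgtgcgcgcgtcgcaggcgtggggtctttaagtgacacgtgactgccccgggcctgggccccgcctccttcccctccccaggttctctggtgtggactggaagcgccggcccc
Dnaja1, chr4:40722348-40722467, plus strand: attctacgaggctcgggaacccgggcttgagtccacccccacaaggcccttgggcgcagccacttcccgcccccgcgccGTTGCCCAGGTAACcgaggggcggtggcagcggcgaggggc
Dnajc7, chr11:100619798-100619877, minus strand: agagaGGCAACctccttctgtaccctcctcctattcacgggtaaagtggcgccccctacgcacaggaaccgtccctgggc
Dnajc1, chr2:18392831-18392950, minus strand: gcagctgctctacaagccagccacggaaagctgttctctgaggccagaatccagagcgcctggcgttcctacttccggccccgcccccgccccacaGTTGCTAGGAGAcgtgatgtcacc
Dnajc25, chr4:59002943-59003192, plus strand: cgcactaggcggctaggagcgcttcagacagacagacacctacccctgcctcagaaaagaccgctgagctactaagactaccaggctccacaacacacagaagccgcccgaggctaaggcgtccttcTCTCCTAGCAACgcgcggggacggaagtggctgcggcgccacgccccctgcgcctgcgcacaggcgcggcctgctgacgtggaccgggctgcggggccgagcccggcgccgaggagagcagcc

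In Dnajc10 the loose form GTCGCCCTGGCAAC ended on the first annotated base of the gene, and its centre lay 7, 1 and 2 bp from the RFX1, RFX2 and RFX3 summits. Distances to a match are to its centre, rounded down to whole bp. In Dnajc16 the centre of the strict form GTTCCTATAGCAAC lay 2 bp from the RFX2 summit and 6 bp from that of RFX3. Both summits were within the match, and that of RFX1 lay 67 bp from its centre. In Dnaja1 the centre of the strict form GTTGCCCAGGTAAC lay 12 bp from the RFX1 summit and 20 bp from that of RFX3. In Dnajc7 the RFX3 summit lay within the core, 1 bp from its centre. The RFX2 and RFX1 summits lay 45 and 51 bp from that centre. The promoter table held 49 windows of 300 bases for 36 of the 44 members, each with 250 bases before a start. The strict form was in 2 of those 49 windows and in 1.03% of all 32851 windows. Both of the 2 held a summit of at least 1 factor. Among all 338 windows with the strict form, 44.7% held an RFX1 summit, 22.8% an RFX2 summit and 45.9% an RFX3 summit. It was in 11.8% of windows with an RFX1 summit, 22.8% with an RFX2 summit and 13.1% with an RFX3 summit. Of the 7 members' windows that held a summit of any factor, 3 had the loose form, and of the other 42 windows 2 had it, those of Dnajb9 and Dnajc14. The window of Dnajc15 was also among the 7. It held none of the letters searched, nor the run marked in Dnajc1 and Dnajc25, and is not printed. The loose form was in 7.17% of all windows and in 39.2% of windows with an RFX1 summit, 51.9% with an RFX2 summit and 40.9% with an RFX3 summit. The core was in 8 of the 49 windows and in 12.5% of all windows.

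The run common to Dnajc1 and Dnajc25 was GTTGCTAGGAGA, 12 bases long. In Dnajc1 its centre lay 3 bp from the RFX1 summit, 11 bp from that of RFX3 and 44 bp from that of RFX2. In Dnajc25 its centre lay 3 bp from the RFX3 summit and 72 bp from that of RFX1. The run begins like an X-box arm but holds neither form above. The run was in 20 of the 32851 windows (0.0609%), from 19 genes, and these 2 members were among them by construction. An RFX1 summit lay in 18 of the 20, an RFX3 summit in 17 and an RFX2 summit in 11. Dnajc1 and Dnajc25, taken for their summits, are both among the 18 and the 17, and Dnajc1 is among the 11. Among all windows the shares with a summit were 3.90%, 3.60% and 1.03%. The first 9 bases of the run, GTTGCTAGG, were in 264 windows, of which 49.2% held an RFX1 summit, 47.0% an RFX3 summit and 14.0% an RFX2 summit. These windows too include those of Dnajc1 and Dnajc25. The length of 9 was set by hand, and the genes behind the 264 windows were not counted. Both the run and its cut come from promoters picked for their summits, so these shares are no independent check. A match describes the letters and is not a binding site by itself, and a window without one only lacks these letters.

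Cytosolic members, with those of no assigned place, were bound at 3 of 13 by RFX1 and by RFX3 (23.1%, against 9.05% and 7.94% of all genes) and at 1 by RFX2 (7.69%, against 2.08%). Dnajc7, the member with every factor, encodes a tetratricopeptide protein that contacts Hsp70 and Hsp90. Its RFX1 peak had a −log10 q of 101 and a fold of 10.6. Its RFX2 peak had 66.1 and 14.0, and its RFX3 peak 78.7 and 6.79. The summits lay 371, 377 and 424 bp inside the gene. The RFX2 peak was the strongest RFX2 peak at a bound member. These summits also lay within 1 kb of an end of Nkiras2, a gene of an NF-κB inhibitor-interacting Ras-like protein, so the site cannot be assigned to either gene. Inside Dnajc7, 11299 bp from its nearer end, a further RFX1 peak had a −log10 q of 49.4, and an RFX3 peak beside it had 28.1.

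Dnaja1, a general co-chaperone with a zinc-binding region, was the 1 bound gene of 4 in the Dnaja group. Its RFX1 and RFX3 summits lay 47 and 14 bp before the start, with −log10 q of 63.4 and 28.3 and folds of 8.71 and 3.52. Both summits also lay within 1 kb of an end of Aptx, a DNA repair gene, so the site cannot be assigned to either gene. Dnajb2, a member known from neurons that handles ubiquitinated clients, had RFX1 and RFX3 summits 489 and 490 bp inside the gene, 1 bp apart. Their −log10 q values were 79.1 and 25.0. They lay 182 and 183 bp after the second of its RefSeq starts, at 75236702. The heat-inducible Dnajb1 had no summit nearer than 239563 bp, and for Dnaja2 the nearest lay 158273 bp away (RFX3).

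The 7 mitochondrial members had 2 with RFX1 (28.6%, against 9.05% of all genes) and 1 with RFX3 (14.3%, against 7.94%). They had 0 with RFX2, where the exact interval reaches 41.0%, a limit of 3 counts gives 42.9% and the background was 2.08%. Dnajc15, an inner membrane protein related to the import motor, had RFX1 and RFX3 summits 21 and 37 bp inside its start, with −log10 q of 56.8 and 51.1. Dnajc30 had the weakest RFX1 peak of the 12, with a −log10 q of 14.2, a fold of 4.09 and rank 6663 of 7440. That summit lay 136 bp outside the gene and within 1 kb of an end of Bud23, an rRNA methyltransferase gene. Dnaja3, Dnajc4, Dnajc11, Dnajc19 and Dnajc28 were not bound. The nearest summit to any of these 5 was 25772 bp from Dnajc11.

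The 6 members placed by hand in a list for vesicles and endocytosis had 2 with RFX1 (33.3%, against 9.05% of all genes). They had 1 with RFX3 (16.7%, against 7.94%) and 0 with RFX2 (exact interval up to 45.9%, against 2.08%). Dnajc27 encodes a Rab-like GTPase joined to a J domain. Its RFX1 and RFX3 summits lay 302 and 290 bp inside the gene, with −log10 q of 60.8 and 38.0. Dnajc13, the endosomal RME-8 protein, had an RFX1 summit 374 bp inside the gene with a −log10 q of 17.5. At 3454 bp outside the gene a second RFX1 peak (18.5) lay near an RFX3 peak at 3554 bp (18.1). Dnajc6, which encodes the clathrin-uncoating protein auxilin, had RFX1 and RFX3 peaks inside the gene, 46860 and 46924 bp from an end, with −log10 q of 15.2 and 20.8. The cysteine string protein genes Dnajc5, Dnajc5b and Dnajc5g were not bound, and the nearest summit among them lay 25757 bp from Dnajc5g.

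Of 7 members tied to the nucleus, the ribosome and RNA, Dnajc24 was bound, by RFX1 and RFX3 (14.3%, against 9.05% and 7.94% of all genes). It acts in diphthamide synthesis on elongation factor 2. Its summits lay 181 and 176 bp inside the start, 5 bp apart, with −log10 q of 79.5 and 51.6. Dnajc1, counted in this list too, had the sites described above. Dnajc2, Dnajc8, Dnajc9, Dnajc17 and Dnajc21 were not bound; of these, Dnajc17 had an RFX1 summit inside the gene, 14376 bp from an end, with a −log10 q of 18.6.

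The other unbound members were Dnajb9, Dnajb11, Dnajb14, Dnajc14, Dnajc18 and Dnajc22 of the endoplasmic reticulum, and Dnaja2, Dnaja4, Dnajb1, Dnajb3 to Dnajb8 and Dnajc12 of the cytosolic list. Dnajb11, a chaperone of the endoplasmic reticulum lumen, had its nearest summit at 13307 bp. Dnajb5 had the nearest sites of these, 2903 bp (RFX1) and 2913 bp (RFX3) upstream of its start. There RFX3 had a −log10 q of 68.6 and a fold of 12.5, and RFX1 27.1 and 6.23. Dnaja4 had an RFX1 summit 3598 bp inside the gene with a fold of 8.28, with no RFX3 summit nearer than 70598 bp. Dnajb7 had summits at 6900 and 6936 bp, which were those of its neighbour St13 described below. Dnajb6 had an RFX3 summit inside the gene, 13577 bp from an end, with a −log10 q of 13.5. The farthest from any RFX3 summit was Dnajc12, at 402036 bp.

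**Figure D2:**
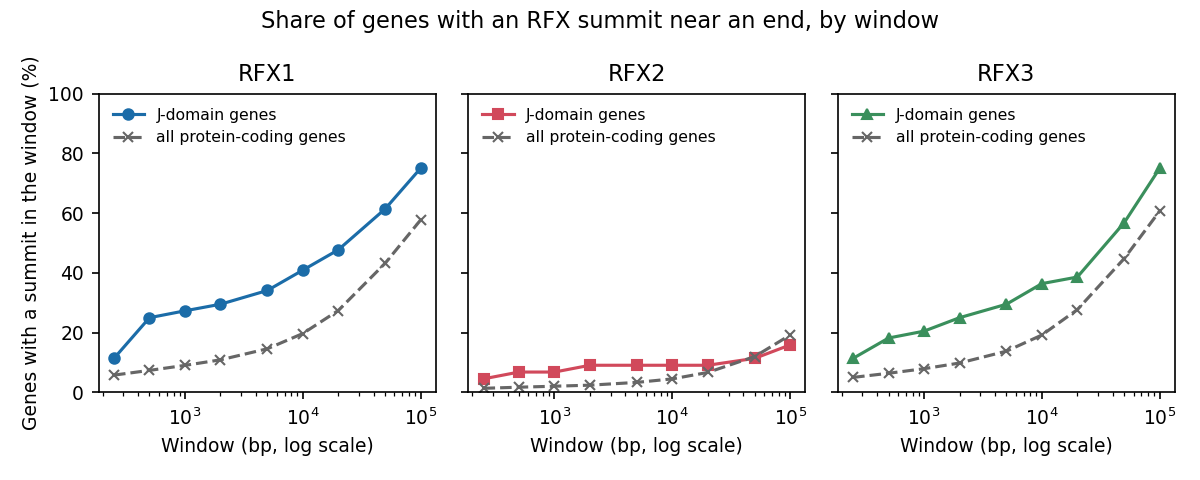
Percent of the 44 J-domain genes (coloured, solid) and of all protein-coding genes (grey, dashed) with a summit within a window of either gene end; the window in bp is on a log axis. At 1 kb the shares are 27.3% against 9.05% for RFX1 and 20.5% against 7.94% for RFX3; for RFX2 the lines cross, with 11.4% against 12.0% at 50000 bp.

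Within 5 kb of an end, RFX1 summits were at 15 members (34.1%, against 14.6% of all genes), RFX3 summits at 13 (29.5%, against 13.8%) and RFX2 summits at 4 (9.09%, against 3.36%). The median distance from a member to the nearest summit was 22107 bp for RFX1, 284925.5 bp for RFX2 and 38893 bp for RFX3; over all genes it was 69849, 488509 and 61465 bp. The lists differ in length. With the best 1250 peaks of each list, RFX1 was bound at 5 members (3.10% of all genes), RFX2 at 3 (2.08%) and RFX3 at 3 (2.07%). Those 3 RFX3 genes were Dnajc7, Dnajc10 and Dnajc16, and RFX1 kept the same 3 with Dnajb2 and Dnajc24.

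Peaks at the bound members ranged widely in strength within their lists, from rank 103 of 7440 (RFX1 at Dnajc10) to rank 8655 of 9318 (RFX3 at Dnajc3). The median −log10 q of the 12 RFX1 peaks was 62.1, with a range of 14.2 to 161, beside 48.0 for the 1677 RFX1 peaks at ends of protein-coding genes. For RFX3 the median of 9 was 51.1 (9.70 to 108) beside 31.6, and for RFX2 the median of 3 was 58.8 (40.2 to 66.1) beside 31.9. Of the bound members, 8 of 12 lay above the gene-end median in RFX1, 6 of 9 in RFX3 and 3 of 3 in RFX2. The median fold was 8.72 for RFX1 beside 8.21 at all gene ends, 12.3 beside 8.74 for RFX2, and 5.15 beside 4.91 for RFX3. Where RFX1 and RFX3 were both bound, their summits lay 1 to 85 bp apart, with a median of 16 bp over 9 genes. RFX1 peaks lay at a gene start in 10 of 12 cases, and all RFX2 and RFX3 peaks did so; the strand of Dnajc30 was not used. The peak was shared with a neighbouring gene in 3 RFX1 cases, those of Dnaja1, Dnajc7 and Dnajc30.

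**Figure D3:**
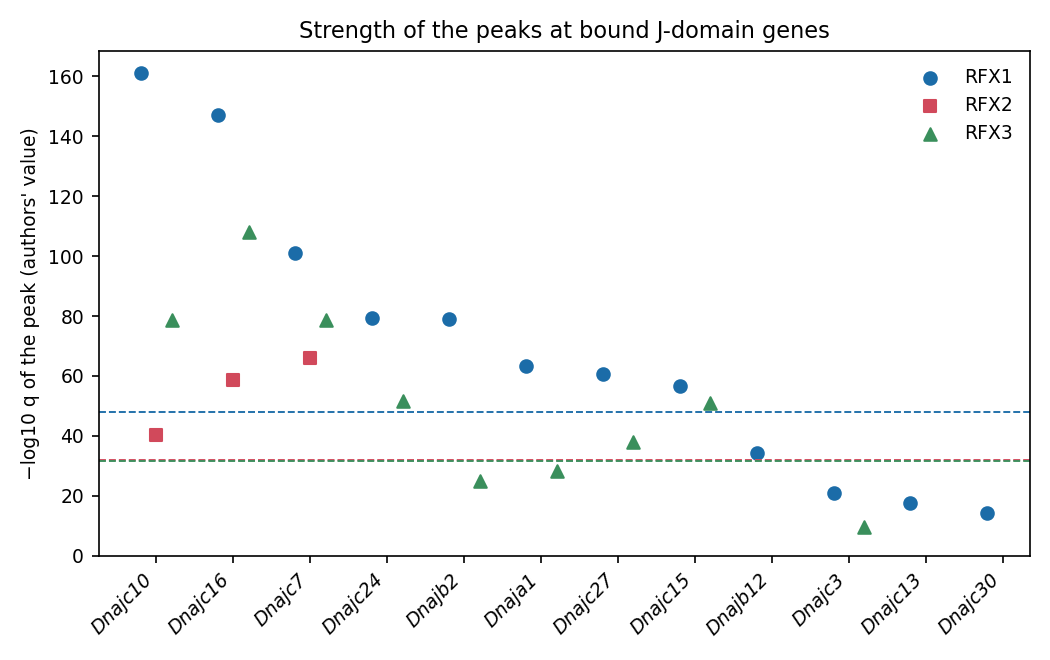
The authors' −log10 q of the peak at each bound J-domain gene, ordered by the RFX1 value; dashed lines give the median over all peaks of the same factor at ends of protein-coding genes (48.0 for RFX1, 31.9 for RFX2, 31.6 for RFX3). Dnajc10, Dnajc16 and Dnajc7 have the highest RFX1 values and are the genes with RFX2.

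Among 32 genes of the Hsp70 family, its exchange factors and adaptors, and the Hsp90 family, 11 were bound by RFX1 (34.4%, interval 18.6 to 53.2). The RFX3 count was 12 (37.5%, interval 21.1 to 56.3) and the RFX2 count 3 (9.38%, interval 1.98 to 25.0). The backgrounds were those given above for the J-domain genes. Neighbouring genes outside these lists were not looked up here, so some of these sites may be shared with them. The Hsp70 family of 15 genes had 5 with RFX1, 6 with RFX3 and 1 with RFX2. Hsph1, an Hsp110 gene that resets Hsp70, had an RFX1 summit at 85 bp (−log10 q of 86.3) and an RFX3 summit at 79 bp (33.8). Hspa1a, a stress-inducible Hsp70 gene, and its neighbour Hspa1l had 1 RFX1 and 1 RFX3 peak between them (68.2 and 64.2). This pair thus rests on shared peaks, each counted for both genes. Hspa2 had every factor, Hspa12a had RFX1 and RFX3, and Hspa4l had RFX3 alone.

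The 13 exchange factors and adaptors had 4 with RFX1, 4 with RFX3 and 1 with RFX2. Hspbp1, an exchange factor of cytosolic Hsp70, had every factor: the −log10 q was 90.1 in the RFX1 list, 36.4 in that of RFX2 and 82.4 in that of RFX3. St13 and Sil1 had RFX1 and RFX3, Stub1 RFX1 and Bag5 RFX3. The St13 summits lay 494 and 458 bp from its end, with −log10 q of 22.7 and 14.3. In the Hsp90 family of 4 genes, Hsp90b1, the form in the endoplasmic reticulum, had RFX1 (126), RFX2 (64.2) and RFX3 (42.5) summits 410 to 416 bp from an end, and Hsp90aa1 had RFX1 and RFX3.

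**Figure D4:**
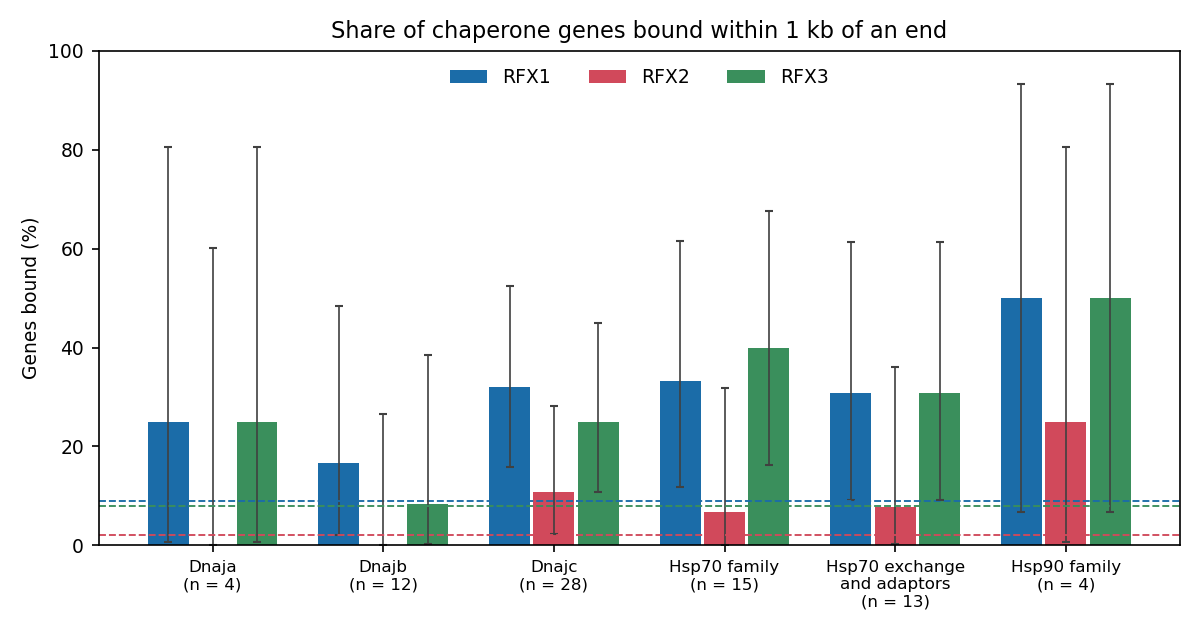
Percent of genes bound within 1 kb of an end, by group and factor; bars start at 0, error bars are exact Clopper-Pearson 95% intervals over genes, and dashed lines give the share of all protein-coding genes. Dnajc genes are at 32.1% for RFX1, Dnajb genes at 16.7%, and the intervals overlap widely. Overlap is not a test of a difference, and none was run.

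By subfamily, RFX1 was bound at 9 of 28 Dnajc genes (32.1%, 15.9 to 52.4), 2 of 12 Dnajb genes (16.7%, 2.09 to 48.4) and 1 of 4 Dnaja genes. The background for RFX1 was 9.05%. RFX3 was bound at 7 Dnajc genes (25.0%), 1 Dnajb gene (8.33%) and 1 Dnaja gene (25.0%), against 7.94%. All 3 genes with RFX2 were among the 28 Dnajc genes (10.7%, against 2.08%), which are 28 of the 44 members. Differences between the subfamilies were not tested.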

How the data were processed

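The 3 deposited peak lists (RFX1, RFX2, RFX3) were used, each with both ChIP samples of a factor merged by the authors; the 5 inputs have no values of their own here. Tools named without roles in the submitters' processing notes were MACS2 2.0.10.20130520, Bowtie 0.12.7 and CASAVA 1.8.2; the build named was GRCm38. What made a peak reproducible, the control sample and the depth were not stated in the labels. The deposited fold enrichment is a ratio, read from the narrow-peak layout. The deposited −log10 q was used to rank peaks. The deposited score equals the whole part of 10 times −log10 q in every peak and was not used further, nor was 1 more column per list, the −log10 p. The deposited summit offset was added to the peak start.

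Genes came from RefSeq tables (GRCm38.p6), strand and starts from the RefSeq promoter table, which matched 36 of 44 members (not Dnajc2, Dnajc5, Dnajc5b, Dnajc11, Dnajc12, Dnajc18, Dnajc22 and Dnajc30). Calls used pandas 2.3.3 and numpy 2.4.6, and were tested on simulated data with summits at known distances. Intervals (95%) used scipy 1.17.1 and figures matplotlib 3.10.9. Members are genes, not replicates, so counts stand beside the share of all protein-coding genes and no test was run. The members and lists (subfamilies; places; Hsp70, exchange factors and adaptors, Hsp90) were chosen with earlier results of these data known; a further list is not reported here. Named with values are bound members, unbound members with a summit within 5 kb, inside the gene or nearest the 1 kb limit, and bound genes of the other lists; other distances were chosen after their values were seen. Alternatives were other windows, shorter lists, peak edges, unshared peaks, gene starts, and leaving out Dnajc5b and Dnajc5g.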

Additional observations from a re-analysis of the deposited data

How the results depend on the processing

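Counts of bound members were recomputed under 9 alternatives for RFX1, RFX2, RFX3, all 3 and any factor. Of the 45 values, 42 stayed within 1.5 times the count at 1 kb, with exactly 1.5 times taken as within. Without shared peaks, RFX2 and all 3 factors fell from 3 to 2, which is at that limit. Any factor gave the same count as RFX1 in every alternative, so its values repeat others. Not all of the 45 values could change. The alternative that left out Dnajc5b and Dnajc5g was fixed in advance, since neither was bound. The values outside that limit came with the best 1250 peaks of each list: RFX1 fell from 12 to 5, RFX3 from 9 to 3 and any factor from 12 to 5. RFX2 stayed at 3 there, since that is its whole list. The share of all genes fell there too. RFX1 was at 11.4% of members against 3.10% of all genes, and RFX3 at 6.82% against 2.07%. For any factor that share was not computed. In the 5 kb window the RFX1 share of all genes was 14.6%, against 9.05% at 1 kb. A 500 bp window dropped Dnajc3, and the better-scoring 50% of each list dropped Dnajc3, with Dnajc13 and Dnajc30 for RFX1. Without shared peaks RFX1 was at 9, RFX2 at 2 and RFX3 at 7. The share of all genes without shared peaks was not computed, so these counts have no matching background. No replicate could be left out. No paired analysis was possible because each list merges its replicates. Depth is unknown, so a peak missing from a list was not called, which is not absence of the factor.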

Other observations

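Dnajb13, a radial spoke gene outside the set described here, lay 1 bp from an RFX1 summit (−log10 q of 28.4) and 2 bp from an RFX3 summit (27.0); the nearest RFX2 summit was 139276 bp away. The pseudogenes Dnaja1-ps, Dnajb6-ps and Dnajc19-ps had no summit nearer than 177151 bp in any of the 3 lists.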
